A study of Mus musculus with 7 samples.

Results

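The genes described are the amino acid transporter families of the mouse genome: 63 protein-coding gene records, of 22367 in the mm9 annotation, whose symbols begin with Slc1a, Slc3a, Slc6a, Slc7a, Slc36a, Slc38a or Slc43a and go on with a number. The Slc6a family gave 19 records, Slc7a 16, Slc38a 12, Slc1a 7, Slc36a 4, Slc43a 3 and Slc3a 2. Among them were Slc7a6os, which lies beside Slc7a6 on the opposite strand and is no transporter, and a short second record of Slc38a9. The measurement was chromatin immunoprecipitation with sequencing (ChIP-seq) of the vitamin D receptor, VDR, from epithelial cells released with EDTA from duodenum and jejunum. All mice were wild type, 8 weeks old and on a standard chow. They had received vehicle (3 libraries) or the active vitamin D hormone, 1,25(OH)2D3, at 10 ng per g of body weight (3 libraries), and tissue was taken after 1 h. Strain and sex are not given in the sources used here. The question addressed was how many VDR peaks lay near each transporter gene in each library, with and without the hormone.

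VDR is a nuclear receptor that binds DNA together with the retinoid X receptor, typically at a pair of hexamers in the same orientation with a short spacer, called a DR3 element. Amino acids released from food protein enter the enterocyte across its apical, brush-border membrane. They leave it across the basolateral membrane, where several exchangers work only when joined to the heavy chain 4F2hc, the product of Slc3a2. The same families also hold the transporters that clear neurotransmitters in brain and those that supply dividing cells with glutamine and other amino acids.

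The number of called peaks differed widely between libraries, and this touches every count given here. In replicates 1, 2 and 3 the vehicle lists held 8756, 14888 and 48425 peaks, and the 1,25(OH)2D3 lists 25510, 30390 and 41722. Replicate 3 was the deep library of both groups, with 68560701 tags for vehicle and 66524392 for 1,25(OH)2D3, against 15991198 to 19733260 in the other 4. Peaks are present or absent in a list, and no signal per peak is given, so a peak number is not an amount of bound receptor. Counts are therefore also given after all lists were shortened to their first 8756 peaks (lists of equal length), and per 10000 peaks of each library. The first depends on the order of each list, which was taken as a rank without knowing which value of the peak caller it follows. It is not stated that the libraries are from different mice, so the tests measure only the spread between these libraries. As a check of the tissue, all 7 enterocyte marker genes had a region in at least 2 libraries of each group. Regions also lay near 3 of 4 immune genes and 1 of 2 neuronal genes in both groups. Of 4 stromal and muscle genes, 4 (hormone) or 3 (vehicle) had one. Over all genes 70.2% had such a region with hormone, and the share with vehicle is not given here. Peak lists do not show expression, so these counts do not tell which cells were present.

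A VDR peak lay near most transporter genes, and the number of peaks was higher with hormone at many of them when whole lists were counted. A peak was counted for a gene if its centre was within 50 kb of the gene body, and per-library values below are always in the order of replicates 1, 2 and 3. The mean number per transporter gene was 1.22, 2.05 and 4.10 with vehicle and 3.48, 3.92 and 4.94 with 1,25(OH)2D3. The highest vehicle library was therefore above the lower pair of hormone libraries. The group means were 2.46 ± 1.48 and 4.11 ± 0.749 (SD, n = 3 each), a difference of 1.66 peaks per gene, beside 1.94 ± 1.33 and 3.20 ± 0.704 over all protein-coding genes. With lists of equal length the means were 1.33 with vehicle and 1.43 with hormone, and per 10000 peaks 1.21 and 1.28. Transporter genes held 1.19 to 1.38 times the peaks of the average gene in each of the 6 libraries. Their median length was 34.3 kb against 15.4 kb over all genes, and the part of gene length in this ratio was not tested.

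**Figure D1:**
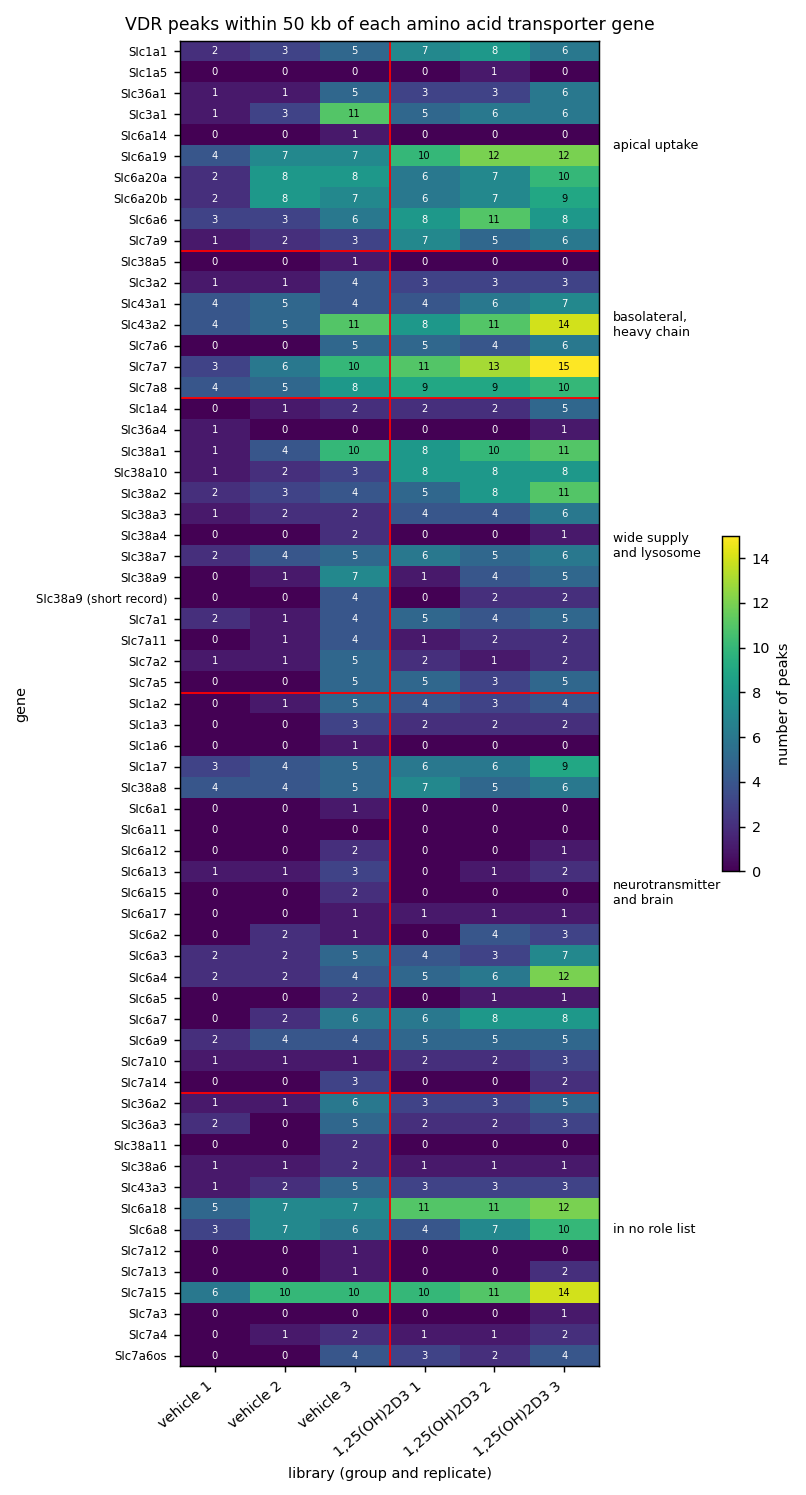
Number of VDR peaks within 50 kb of each transporter gene (vertical axis, grouped by role) in each of the 6 libraries (horizontal axis, vehicle left of the red line). The colour gives the number of peaks. Rows of Slc6a19, Slc6a18, Slc7a7 and Slc7a15 reach 10 or more peaks in every 1,25(OH)2D3 library. A lower mean with hormone than with vehicle was found at 13 of 63 records, beside 4567 of 22367 protein-coding genes.

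At 14 of 63 transporter genes (22.2%), every 1,25(OH)2D3 library held more peaks than every vehicle library, where 16.0% of all protein-coding genes did. The opposite, every hormone library below every vehicle library, was found at 0 of 63, with 0.0447% of all genes. These 14 were Slc1a1, Slc1a7, Slc38a2, Slc38a3, Slc38a10, Slc6a4, Slc6a6, Slc6a9, Slc6a18, Slc6a19, Slc7a7, Slc7a8, Slc7a9 and Slc7a10. Each had an exact two-sided permutation p of 0.1, the smallest that 3 against 3 can give, and after Benjamini-Hochberg adjustment over all genes the smallest p was 0.623. No gene passed a threshold of 0.05. The median difference was 1.33 peaks over the 63 records and 0.667 over all genes.

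The calls depended on how long the lists were. With lists of equal length, Slc38a10 alone met the rule for higher (4.03% of all genes), and Slc43a1 and Slc6a13 met the rule for lower (1.83% of all genes). Per 10000 peaks the rule for higher was met at 5 genes, Slc38a10, Slc7a9, Slc6a7, Slc6a17 and Slc7a6 (10.0% of all genes), and that for lower at 2, Slc6a13 and Slc38a6 (1.64% of all genes). Very few peaks underlie some of these calls. In whole lists Slc38a6 had 1, 1 and 2 peaks with vehicle and 1 in each hormone library. Slc6a17 had 0, 0 and 1 with vehicle and 1 in each hormone library. Of the 14 genes higher in whole lists, 7 also had the higher mean with hormone under both of these scalings: Slc1a1, Slc6a4, Slc6a6, Slc6a19, Slc7a7, Slc38a3 and Slc38a10. At Slc6a19 the difference per 10000 peaks was only 0.00976. The 14 had been picked as higher in these same lists, and the matching share over all genes was not computed. The mean turned lower with lists of equal length at Slc6a9, Slc7a8, Slc7a9 and Slc7a10, turned lower per 10000 peaks at Slc1a7, Slc6a9, Slc6a18 and Slc7a8, and was equal with lists of equal length at Slc38a2. Because same-numbered libraries varied together, pairs were compared too: 25 of 63 genes held more peaks with hormone in each of the 3 pairs (33.2% of all genes) and 0 held fewer (0.156% of all genes). Without vehicle replicate 3, the deep vehicle library, 33 of 63 were higher in every hormone library (42.3% of all genes).

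Apical uptake transporters carried peaks at 8 of 10 genes, taking regions found in at least 2 of 3 hormone libraries, against 70.2% of all genes and 47 of 63 transporter records (74.6%). The neutral amino acid transporter Slc6a19 (B0AT1), the main apical route for neutral amino acids, had 4, 7 and 7 peaks with vehicle and 10, 12 and 12 with 1,25(OH)2D3. The groups did not overlap, and the means were 6 ± 1.73 and 11.3 ± 1.15 (SD, n = 3 each). The difference of 5.33 peaks became 1.67 with lists of equal length, where the hormone libraries held 5, 7 and 8 peaks and the vehicle libraries 4, 5 and 6. Per 10000 peaks the means were 3.57 and 3.58. Its neighbour Slc6a18, a related apical transporter best known from kidney, had 5, 7 and 7 peaks with vehicle and 11, 11 and 12 with hormone, a difference of 5 that was 2 with lists of equal length and -0.35 per 10000 peaks. Most of these peaks were counted for both, because the bodies chr13:73817193-73842313 (Slc6a19) and chr13:73799198-73815471 (Slc6a18) lie side by side.

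**Figure D2:**
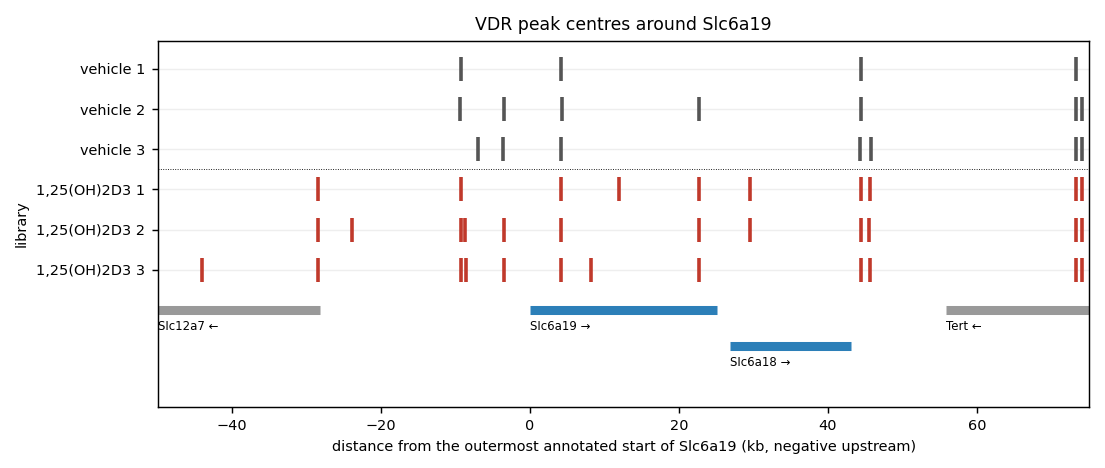
Centres of VDR peaks around Slc6a19 in each library (vertical axis), by distance in kb from its outermost annotated start (horizontal axis, negative upstream). A region 4.19 kb inside the gene, at an internal annotated start, holds a peak in all 6 libraries, and a region 28.5 kb upstream holds one in the 3 hormone libraries only.

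The centre of a region called in all 6 libraries lay 6 bp from an internal annotated start of Slc6a19, at a mean list percentile of 80.4, where 100 is the first peak of a list. The percentile is a position in the deposited list and not a measured occupancy, and distances of regions are from the centre of the merged region, not of each peak. The region found in the 3 hormone libraries and in no vehicle library, 28.5 kb upstream at percentile 69.2, was at the start of the neighbouring gene Slc12a7. A further region 9.30 kb upstream, in 2 vehicle and all hormone libraries, had percentile 82.6.

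The taurine transporter Slc6a6 (TauT, chr6:91634061-91709057) had 3, 3 and 6 peaks with vehicle and 8, 11 and 8 with 1,25(OH)2D3. The groups did not overlap, with means of 4 ± 1.73 and 9 ± 1.73 (SD, n = 3 each), and the hormone mean was also above the vehicle mean with lists of equal length (3.33 against 2.67) and per 10000 peaks (2.89 against 2.23). It had 5 regions in all 3 hormone libraries, each nearer to its own start than to that of another gene, and 4 of the 5 held a DR3 with at most 1 mismatch. A region 43.5 kb into the gene, in an intron and in all 6 libraries, was at percentile 97.5, and one at 8.01 kb, also intronic, was in the hormone libraries only. Both are printed because they show the same kind of element at a region found without hormone and at one found only with it. Sequences are from the NCBI build 37 (mm9) genome, plus strand, as windows of 201 bases centred on the region, and capitals mark the DR3, which lies on the minus strand in both.
Slc6a6 intron, all 6 libraries, chr6:91677494-91677694: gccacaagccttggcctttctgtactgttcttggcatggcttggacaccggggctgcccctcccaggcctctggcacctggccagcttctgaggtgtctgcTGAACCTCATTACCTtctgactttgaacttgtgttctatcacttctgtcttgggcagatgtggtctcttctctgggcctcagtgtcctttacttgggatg
Slc6a6 intron, hormone only, chr6:91641966-91642166: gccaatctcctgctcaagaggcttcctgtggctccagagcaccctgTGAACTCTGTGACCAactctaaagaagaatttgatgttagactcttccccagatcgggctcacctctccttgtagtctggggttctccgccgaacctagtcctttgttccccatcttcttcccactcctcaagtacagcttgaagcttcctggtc

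**Figure D3:**
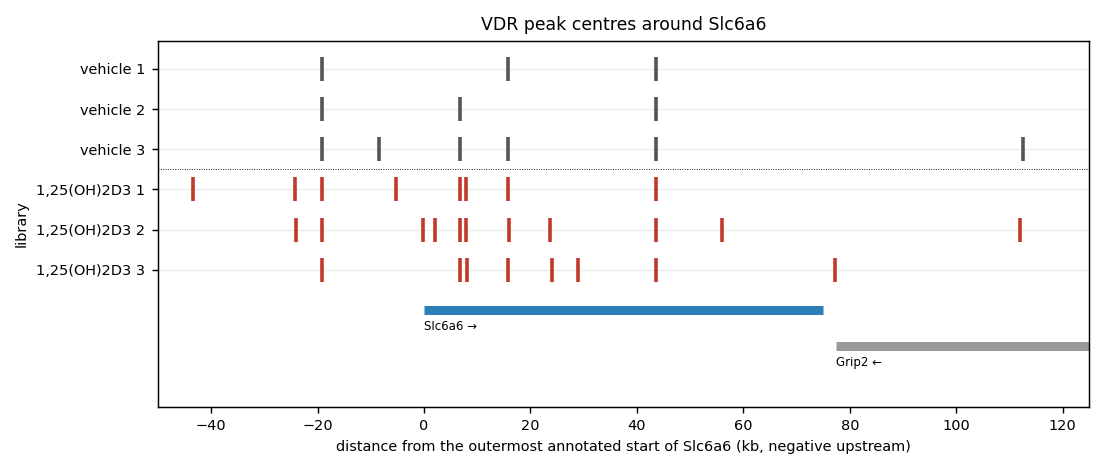
Centres of VDR peaks around Slc6a6 in each library (vertical axis), by distance in kb from its start (horizontal axis, negative upstream). Columns of points in all 6 libraries stand 19.1 kb upstream and 43.5 kb downstream of the start, and a column at 8.01 kb has points in the 3 hormone libraries only.

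The light chain Slc7a9 (b0,+AT) forms with the heavy chain Slc3a1 (rBAT) the apical exchanger for cystine and cationic amino acids, and both genes had a peak at their start. Slc7a9 had 1, 2 and 3 peaks with vehicle and 7, 5 and 6 with 1,25(OH)2D3, without overlap, and the mean difference of 4 was -0.333 with lists of equal length. Slc3a1 had 1, 3 and 11 peaks with vehicle and 5, 6 and 6 with hormone, so its deep vehicle library was above every hormone library. The regions at their starts, 184 bp upstream of Slc7a9 and 17 bp downstream of the start of Slc3a1, were each in 2 vehicle libraries and all 3 hormone libraries, at percentiles 79.9 and 73.5. A hormone-only region stood 1.39 kb upstream of Slc7a9 at percentile 56.7. The Slc7a9 start region is printed because it held no DR3 with at most 2 mismatches within 100 bp of its centre, and its capitals mark a Cdx motif and, on the other strand, a GATA motif, both spelled out with the motif counts. Over the whole region, which extends beyond the printed window, the best DR3 had 2 mismatches.
Slc7a9 start, 2 vehicle and 3 hormone libraries, chr7:36233772-36233972: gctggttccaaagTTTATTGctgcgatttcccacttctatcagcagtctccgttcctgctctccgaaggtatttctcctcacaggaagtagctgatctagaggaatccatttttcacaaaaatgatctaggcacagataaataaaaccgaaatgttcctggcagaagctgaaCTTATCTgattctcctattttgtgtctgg

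The remaining apical genes ranged from several peaks to none. Slc1a1, which carries glutamate and aspartate, had 2, 3 and 5 peaks with vehicle and 7, 8 and 6 with hormone, without overlap, and means of 3.33 ± 1.53 and 7 ± 1 (SD, n = 3 each). Its groups were no longer apart within 10 kb, within 100 kb and within 50 kb of the outermost start. The imino acid transporter Slc6a20a had 2, 8 and 8 with vehicle and 6, 7 and 10 with hormone, and its neighbour Slc6a20b 2, 8 and 7 against 6, 7 and 9. The groups overlapped at both, and most of the peaks were shared between them. The proton-coupled transporter Slc36a1 (PAT1) had 1, 1 and 5 peaks with vehicle and 3, 3 and 6 with hormone, with the deep vehicle library above the lower pair of hormone libraries. Slc1a5 (ASCT2), a glutamine transporter, had 0 in each vehicle library and 0, 1 and 0 with hormone, and Slc6a14 (B0,+), a broad-range transporter, had 0, 0 and 1 and then 0 in each hormone library. Apical transporters thus included both genes rich in peaks and genes with hardly any.

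The region 240.5 bp upstream of an internal annotated start of Slc36a1 was at percentile 91.9 and was called in all hormone libraries and 1 vehicle library. It is shown as a start region high in the lists that held no DR3 with at most 2 mismatches within 100 bp of its centre. None of the other motifs searched was in that window either, so that it has no capitals. Over the whole region, beyond the printed window, the best DR3 had 1 mismatch.
Slc36a1 internal start, 1 vehicle and 3 hormone libraries, chr11:55026956-55027156: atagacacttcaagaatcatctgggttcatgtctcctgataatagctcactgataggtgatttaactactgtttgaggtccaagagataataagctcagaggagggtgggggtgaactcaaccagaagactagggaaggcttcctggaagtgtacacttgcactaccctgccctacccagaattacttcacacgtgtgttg

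Basolateral transporters and the heavy chain had regions at 6 of 7 genes, where 70.2% of all genes had one. In whole lists the median difference between their group means was 3.33 peaks, beside 0.667 over all genes. Their mean with vehicle was also higher, 3.86 peaks against 1.94 over all genes. Per 10000 peaks the difference was positive at Slc3a2, Slc7a6 and Slc7a7, and negative at Slc7a8, Slc43a1, Slc43a2 and Slc38a5. Slc7a7 (y+LAT1), which exports cationic amino acids in exchange for neutral ones, had 3, 6 and 10 peaks with vehicle and 11, 13 and 15 with 1,25(OH)2D3. The groups did not overlap, and the means were 6.33 ± 3.51 and 13 ± 2 (SD, n = 3 each). The difference of 6.67 peaks was the largest among the 63 records with this window, but within 50 kb of the outermost start it was 4 and the groups were no longer apart. Around the gene body the hormone mean was also above the vehicle mean with lists of equal length (5 against 4) and per 10000 peaks (4.06 against 3.17). Its region at 897 bp upstream of an internal annotated start was in 2 vehicle and 3 hormone libraries at percentile 85. Regions in all 6 libraries lay 26.7 kb and 83.1 kb downstream of its outermost start, and a hormone-only region at 52.2 kb was at the start of the neighbouring gene Oxa1l.

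Slc7a8 (LAT2), an exchanger for neutral amino acids, had 4, 5 and 8 peaks with vehicle and 9, 9 and 10 with hormone, without overlap, but 4, 3 and 2 against 1, 2 and 3 with lists of equal length. Its region in all 6 libraries was intronic, 4.90 kb from the start, at percentile 92.3. The uniporter Slc43a2 (LAT4) had 4, 5 and 11 peaks with vehicle and 8, 11 and 14 with hormone, and the groups overlapped. It nevertheless held the region highest in the lists of all regions near transporter genes present in all 6 libraries, in an intron 3.65 kb from its outermost start at percentile 98.1. A second intragenic region of Slc43a2, 69 bp from an internal annotated start, was at percentile 94.5 and in 1 vehicle and 3 hormone libraries.

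The start regions of Slc7a7 and Slc43a2 are shown because they belong to the basolateral genes with most regions, 13 and 10 in at least 2 hormone libraries. Capitals mark a DR3 with 2 mismatches, on the minus strand for Slc7a7 and on the plus strand for Slc43a2.
Slc7a7 internal start, 2 vehicle and 3 hormone libraries, chr14:55029094-55029294: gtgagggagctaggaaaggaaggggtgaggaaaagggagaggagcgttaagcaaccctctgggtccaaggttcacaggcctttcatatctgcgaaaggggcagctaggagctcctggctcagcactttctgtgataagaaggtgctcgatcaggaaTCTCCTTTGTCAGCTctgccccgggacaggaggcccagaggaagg
Slc43a2 internal start, 1 vehicle and 3 hormone libraries, chr11:75374292-75374492: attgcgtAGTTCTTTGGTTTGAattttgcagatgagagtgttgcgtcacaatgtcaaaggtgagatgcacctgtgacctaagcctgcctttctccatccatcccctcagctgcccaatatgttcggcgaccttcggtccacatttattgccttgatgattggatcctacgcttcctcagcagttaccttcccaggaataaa

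The other basolateral genes gave smaller numbers. Slc3a2, the 4F2hc heavy chain, had 1, 1 and 4 peaks with vehicle and 3, 3 and 3 with hormone, and Slc7a6 (y+LAT2), its other cationic partner, 0, 0 and 5 against 5, 4 and 6. At both genes it was the deep vehicle library that overlapped the hormone libraries. Slc43a1 (LAT3), a uniporter for large neutral amino acids, had 4, 5 and 4 peaks with vehicle and 4, 6 and 7 with hormone. With lists of equal length it had 4, 4 and 3 with vehicle and 1 in each hormone library, so most of its hormone peaks stood beyond the first 8756 of their lists. The list of vehicle replicate 1 held only 8756 peaks, so none of its peaks could be lost in this way. The only region near a transporter gene that was called in all 3 vehicle libraries and no hormone library lay at chr2:84666909-84667241, 11.9 kb upstream of Slc43a1, with Timm10 as the nearest gene start. Slc38a5 (SNAT5), a glutamine transporter, had 0, 0 and 1 peaks with vehicle and none with hormone.

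**Figure D4:**
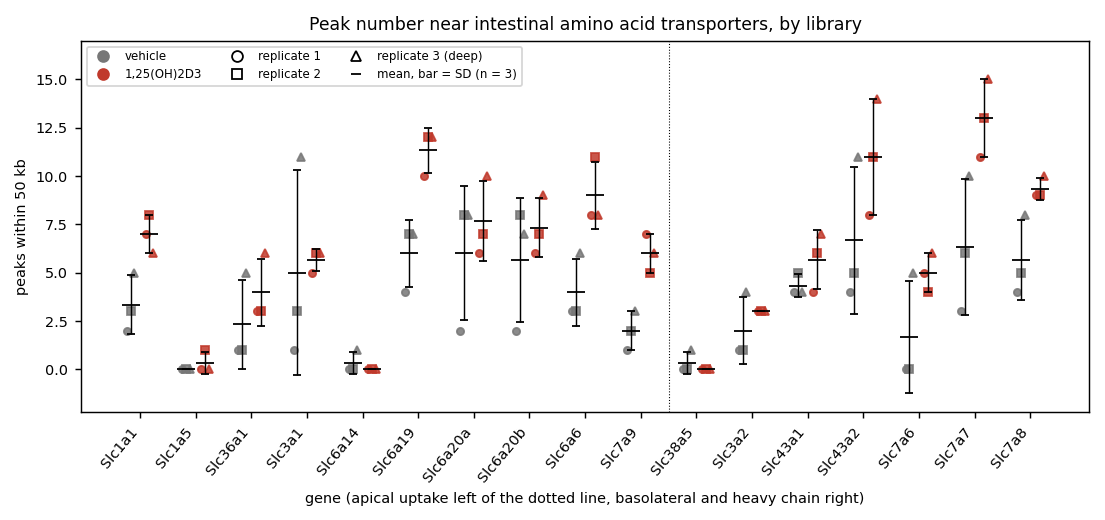
Number of VDR peaks within 50 kb (vertical axis) of the 10 apical and 7 basolateral or heavy-chain genes (horizontal axis), with 1 point per library, the mean as a dash and the SD as a bar (n = 3 per group). Hormone points lie above all vehicle points at Slc1a1, Slc6a6, Slc6a19, Slc7a7, Slc7a8 and Slc7a9 in whole lists, of which Slc7a8 and Slc7a9 turn lower with lists of equal length and Slc7a8 also per 10000 peaks.

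Transporters grouped here under wide supply and lysosome had regions at 11 of 13 genes (70.2% of all genes). Of the 13, 3 had non-overlapping groups, Slc38a2, Slc38a3 and Slc38a10 (16.0% of all genes). Slc38a10, of the sodium-coupled neutral amino acid family, had 1, 2 and 3 peaks with vehicle and 8 in each hormone library. It was the only transporter gene whose groups also did not overlap under both scalings: with lists of equal length it had 1, 1 and 0 against 2, 2 and 2. It also had 3 hormone-only regions, all intergenic and upstream, at 12.8, 33.7 and 39.0 kb from its outermost start. The most distant of them, at percentile 90.3, was the highest in the lists of the hormone-only regions near transporter genes.

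The glutamine transporters Slc38a1 (SNAT1) and Slc38a2 (SNAT2), neighbours on chromosome 15, had 8 and 7 regions in at least 2 hormone libraries. Some regions were counted for both, because the windows around chr15:96401849-96473344 (Slc38a1) and chr15:96517825-96530129 (Slc38a2) overlap. Slc38a1 had 1, 4 and 10 peaks with vehicle and 8, 10 and 11 with hormone, overlapping in the deep vehicle library. Slc38a2 had 2, 3 and 4 with vehicle and 5, 8 and 11 with hormone, without overlap, but means of 1.67 in both groups with lists of equal length. With every other window tried, the groups of Slc38a2 were no longer apart. A region 36.2 kb upstream of Slc38a2 was called in all 6 libraries at percentile 92.8. Slc7a2 (CAT2), which carries cationic amino acids, was among the 5 genes with the largest fall in mean: 1, 1 and 5 peaks with vehicle against 2, 1 and 2 with hormone, a difference of -0.667 that lay within the spread of the vehicle libraries.

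Transporters of neurotransmitters and of brain had regions at 12 of 19 genes (70.2% of all genes), and non-overlapping groups at 4, Slc1a7, Slc6a4, Slc6a9 and Slc7a10 (16.0% of all genes). The serotonin transporter Slc6a4, which also clears serotonin into enterocytes, had 2, 2 and 4 peaks with vehicle and 5, 6 and 12 with 1,25(OH)2D3, and means of 2.67 ± 1.15 and 7.67 ± 3.79 (SD, n = 3 each). A region 53 bp from an internal annotated start was called in all 6 libraries at percentile 89.8. Introns of the gene held 2 hormone-only regions, at 5.33 and 22 kb from the outermost start. The glutamate transporter Slc1a7, known from retina, had 3, 4 and 5 peaks with vehicle and 6, 6 and 9 with hormone, and its difference turned to -0.221 per 10000 peaks. The proline transporter Slc6a7 had 0, 2 and 6 with vehicle and 6, 8 and 8 with hormone, where the deep vehicle library equalled the lowest hormone library.

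The glycine transporter Slc6a9 (GlyT1) and the small neutral amino acid exchanger Slc7a10 (Asc-1) each had a region whose DR3 differed from the motif at 1 position. That of Slc6a9 lay 4.31 kb upstream in all 6 libraries at percentile 95.8, while that of Slc7a10 lay 724 bp upstream in hormone libraries only at percentile 42.3. The Slc7a10 region was the only hormone-only region within 1 kb of an annotated start of a transporter gene (1 of 63 records, where 4.21% of all genes had one). It is printed for that reason, with the DR3, on the minus strand, in capitals.
Slc7a10 start, hormone only, chr7:35970580-35970780: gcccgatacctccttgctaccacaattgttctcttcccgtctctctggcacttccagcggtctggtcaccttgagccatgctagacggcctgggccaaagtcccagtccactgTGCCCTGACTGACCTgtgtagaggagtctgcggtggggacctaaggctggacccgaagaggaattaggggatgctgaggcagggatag

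No region in at least 2 hormone libraries was found near 16 records, of which 7 were transporters of neurotransmitters or brain and 2 apical. Slc6a11, a GABA transporter, had no peak in any library, 1 of 63 records (1.59%) where 9.45% of all genes had none. Slc1a6, Slc38a11 and Slc6a15 had no peak in any hormone library, with 1, 2 and 2 peaks in the deep vehicle library alone. Slc6a13, a GABA and taurine transporter of liver and kidney, had 1, 1 and 3 peaks with vehicle and 0, 1 and 2 with hormone. All 13 genes with a lower mean in whole lists (4567 of 22367 over all genes) differed by 0.667 peaks or less. Among genes placed in no role group, the creatine transporter Slc6a8 had 3, 7 and 6 peaks with vehicle and 4, 7 and 10 with hormone. Slc7a15 had 6, 10 and 10 against 10, 11 and 14, and Rhob starts within its annotated body.

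Peaks of the 6 libraries that overlapped by at least 1 bp were merged, which gave 463 regions near transporter genes among 87029 in all. Of the 463, 34 (7.34%) were in all 6 libraries, against 4.99% of all regions. A further 22 (4.75%) were in all 3 hormone and no vehicle library, against 5.39%. In all 3 hormone libraries together there were 130 (28.1%), against 20.5%. Of these 130, 16.9% were in no vehicle library, against 26.2% of all such regions. Regions called in the deep vehicle library alone made up 21%, against 37.0% of all regions. The 463 regions had to lie near a gene body and the 87029 did not. These shares therefore describe the set and are not a comparison on equal footing, and regions near other genes were not compared.

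**Figure D5:**
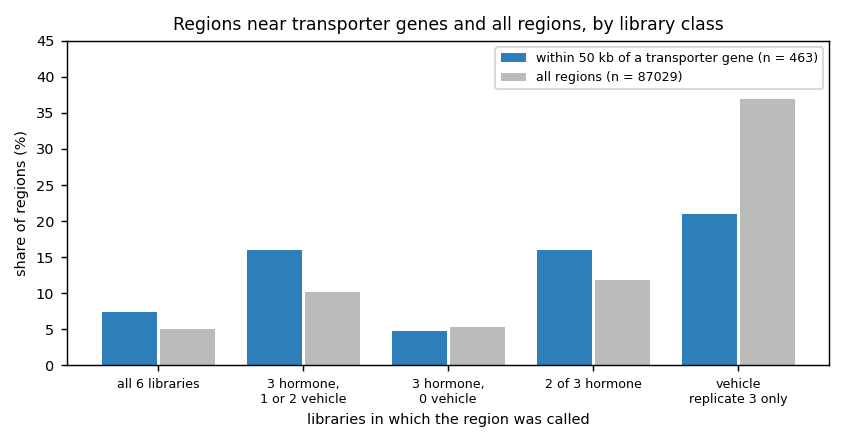
Share of merged regions (vertical axis, %) by the libraries in which they were called (horizontal axis), for the 463 regions within 50 kb of a transporter gene and for all 87029 regions. Near transporter genes 7.34% were in all 6 libraries and 21% in vehicle replicate 3 alone, against 4.99% and 37.0% of all regions. The 463 were chosen by closeness to a gene body and the 87029 were not.

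Counted by gene, 23 of 63 records (36.5%) had a region in all 6 libraries within 50 kb, where 29.1% of all genes had one. A hormone-only region lay near 18 of 63 (28.6%), where 33.2% of all genes had one. A region in all 3 hormone libraries stood within 1 kb of an annotated start at 12 of 63, with 12.1% of all genes.

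Regions near transporter genes were often close to other genes as well. By the outermost annotated start of each gene, and leaving internal starts aside, of the 130 regions in all 3 hormone libraries, 69 (53.1%) had a transporter gene as the nearest gene start, and 58 lay inside a transporter gene. Upstream of the gene there were 43 and downstream 29, and 19 were within 50 kb of more than 1 transporter record. Centres were in introns at 46.2% (39.8% of all such regions), within 1 kb of a start at 18.5% (14.9%), in exons at 7.69% (2.41%) and between genes at 27.7% (42.9%). Inclusion required closeness to a gene body, so these shares describe the set and are not a comparison with equal footing. The 34 regions in all 6 libraries had a median list percentile of 82.7 and the 22 hormone-only regions one of 58.1. A percentile is the mean over the libraries that called the region. The first median therefore includes vehicle lists and the second hormone lists only.

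DR3 elements were about as frequent near transporter genes as in all regions. The element was searched on both strands within 100 bp of each region centre, with mismatches counted over its 12 fixed positions. At most 2 mismatches were found in 87 of 130 regions (66.9%, 95% Wilson interval 58.5 to 74.4%, counting error only), against 64.7% of all 17875 regions in the 3 hormone libraries. Windows shifted by 5000 bp held one at 42.3% near transporter genes and 35.5% overall. With at most 1 mismatch the shares were 19.2% and 21.7%, and in shifted windows 5.38% and 4.44%. Hormone-only regions held a DR3 of at most 2 mismatches in 15 of 22, where 63.4% of all hormone-only regions did, and regions in all 6 libraries in 24 of 34, where 71.4% of all such regions did.

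A full match was found in 5 of the 130 regions, 3.85% against 3.66% of all regions, and these are printed with 2 further elements of Slc6a19. Each is read 5′ to 3′ on the strand named, with the hexamers in capitals around the 3 spacer bases.
Slc6a6, 19.1 kb upstream, all 6 libraries, minus strand, chr6:91614885-91614899: GGGTCActgGGGTCA
Slc7a1, intron, all 6 libraries, minus strand, chr5:149196474-149196488: GGTTCAcagGGTTCA
Slc6a8, 23.1 kb upstream, 2 vehicle and 3 hormone libraries, plus strand, chrX:70895330-70895344: AGTTCAttaAGTTGA
Slc7a11, intron, 1 vehicle and 3 hormone libraries, minus strand, chr3:50185784-50185798: AGGTGAgggAGTTCA
Slc38a10, intron, 1 vehicle and 3 hormone libraries, minus strand, chr11:119998062-119998076: AGGTGAcagAGGTCA
Slc6a19, internal start, 1 mismatch, all 6 libraries, minus strand, chr13:73838190-73838204: AGGTGCttgGGTTGA
Slc6a19, 9.30 kb upstream, 1 mismatch, 2 vehicle and 3 hormone libraries, minus strand, chr13:73851520-73851534: AGGTGAtggGAGTGA

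Slc7a1 (CAT1) carries cationic amino acids into many cells and Slc7a11 (xCT) exchanges cystine for glutamate. Motifs of other factor families were searched in the same windows and both orientations. CAAAGTCCA, a form of the HNF4 site, was in 2.31% of the 130 regions and 2.73% of all. TTTATNG, bound by caudal-type factors such as Cdx2, was in 13.8% and 13.7%. The GATA site AGATAAG was in 8.46% and 8.93%. TGANTCA, the AP-1 site, was in 9.23% and 13%. In windows shifted by 5000 bp the shares near transporter genes were, in the same order of motifs, 0.769%, 5.38%, 5.38% and 8.46%. Over all regions the shifted windows gave 0.274%, 10.3%, 2.76% and 5.87%. Overlaps of these matches with DR3 matches were not counted, and a match describes only the letters present.

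Other genes of protein and amino acid absorption had more peaks than the transporters. All 14 had a region in at least 2 hormone libraries (70.2% of all genes), 13 of them one in all 6 libraries (29.1% of all genes), and the mean was 5.48 peaks with vehicle and 9.07 with 1,25(OH)2D3. Every hormone library was above every vehicle library at 4 of 14 (16.0% of all genes), the peptidase genes Anpep, Enpep, Ace and Ggt1. These counts are for whole lists only, and the same genes were not tested with lists of equal length. The peptide transporter Slc15a1 (PepT1) had 5, 9 and 15 peaks with vehicle and 12, 16 and 17 with hormone, and overlapped. The aromatic amino acid exporter Slc16a10 (TAT1) had 2, 3 and 12 against 12, 12 and 13, also overlapping.

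Genes that sense amino acids or respond to their lack gave 4 of 15 with non-overlapping groups (16.0% of all genes) and regions at 12 of 15 (70.2% of all genes). Their values are for whole lists only, and whether the groups stay apart with lists of equal length was not tested. Atf4, the transcription factor of the amino acid response, had 1, 3 and 3 peaks with vehicle and 5, 6 and 6 with hormone. Sesn2, a leucine sensor of the mTORC1 pathway, had 1, 2 and 4 against 6, 11 and 10. Trib3, a target of that response, had 3, 3 and 2 against 7, 9 and 9, and Tas1r3, a subunit of the umami taste receptor, 1, 2 and 3 against 5, 5 and 5. Rragb had no peak in any library.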

How the data were processed

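VDR ChIP-seq peak lists of 3 vehicle and 3 1,25(OH)2D3 libraries were analysed. The input library of the series has no list and entered no test. Reads were aligned to mm9 with Bowtie and peaks called with HOMER, per the submitters' processing notes, with versions not given in the sources used here. Peaks were called per library against 1 input, per the file headers, at a false discovery rate of 0.001, at least 4-fold over input and over the surrounding 10 kb, with a Poisson p limit of 0.0001. The deposited score is 1 for every peak, and the deposited start and end positions were used. Signal per peak was not used here.

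Genes came from GENCODE mouse version 1 (Ensembl 65, NCBI build 37), and peaks off the 21 named chromosomes (at most 1 per library) were left out. A later RefSeq build was not used. Peaks with centres within 50 kb of a gene body were counted per library with Python 3.11.15, numpy 2.4.6 and scipy 1.17.1. Groups were compared by exact two-sided permutation of the 6 labels per gene (20 splits), with Benjamini-Hochberg adjustment over 22367 genes, and a gene was called where the groups did not overlap. A region was given to the transporter gene whose body was nearest. Same-numbered libraries deviated together from their group means over all genes (correlations 0.158, 0.124 and 0.217, other pairs -0.166 to 0.0242), so pairs were compared as well. Whether this pairing reflects more than depth was not tested.

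The members and role lists were chosen with earlier results of these data known. Genes named were the apical and basolateral lists, the 15 with most regions in at least 2 hormone libraries and the 5 largest differences each way, with others named from counts after their values were seen. Regions described were the 10 highest in the lists that were hormone-only, the 10 highest in all 6 libraries and those within 1 kb of a start, with others near named genes chosen after their values were seen. The motifs other than DR3 were also chosen after the data were seen. Counting was tested on simulated data. Lamtor1 of the sensing list was not found in the annotation. The values of 1 listed gene and the sequence of 1 region are not reported here.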

Additional observations from a re-analysis of the deposited data

How the results depend on the processing

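The number of genes higher with hormone was 14, and became 1 with lists of equal length, 5 per 10000 peaks, 25 with the replicate block (more peaks in each pair) and 14 to 33 when 1 library was left out, the 33 without vehicle replicate 3. Over all genes the shares higher were 16.0% in whole lists, 4.03% with lists of equal length and 10.0% per 10000 peaks. They were 33.2% with the replicate block and 42.3% without vehicle replicate 3, and were not computed for other windows or libraries left out. Genes lower with hormone, 0 in whole lists (0.0447% of all genes), numbered 2 with lists of equal length (1.83%) and 2 per 10000 peaks (1.64%). The difference in mean peaks per gene, 1.66, was 0.915 within 10 kb, 3.04 within 100 kb, 1.04 to 2.48 when 1 library was left out (1.04 without vehicle replicate 1), 0.0952 with lists of equal length and 0.0730 per 10000 peaks. Hormone-only regions, 22, numbered 11 within 10 kb, 14 within 25 kb, 51 within 100 kb, 4 with lists of equal length and 26 to 48 when 1 library was left out: 48 without vehicle replicate 3, 45 without 1,25(OH)2D3 replicate 1 and 34 without 1,25(OH)2D3 replicate 3. Regions in all 6 libraries, 34, numbered 20 within 10 kb and 34 to 58 when 1 library was left out, the 58 without vehicle replicate 1. The DR3 share, 66.9%, was 19.2% with at most 1 mismatch and 83.8% over whole regions. Of 372 differences of single genes under alternatives, 19 changed sign. With lists of equal length the difference turned to -1 at Slc7a8, -0.333 at Slc7a9, -2.67 at Slc43a1, -1 at Slc6a8, -0.667 at Slc3a1 and -0.333 at Slc38a1, Slc6a7 and Slc7a15. Without vehicle replicate 1 it was -1.33 at Slc3a1, -0.333 at Slc6a20a and -0.167 at Slc6a20b, and without vehicle replicate 2 it was -0.333 at Slc3a1. Slc7a2 turned to 0.667 without vehicle replicate 3 and to 0.5 without both deep libraries. Within 25 kb Slc43a1 was at -0.667, and within 100 kb Slc38a11, Slc38a5, Slc6a13 and Slc7a2 turned to 0.667, 1, 1 and 2. Leaving out both deep libraries, chosen after the data were seen, gave 33 genes higher and 61 hormone-only regions, and the shares over all genes and regions were not computed. Leaving out Slc7a6os and the second Slc38a9 record, also chosen then, gave 14 of 61. Of the 14, 9 kept non-overlapping groups within 10 kb, 9 within 25 kb, 10 within 100 kb and 10 within 50 kb of the outermost start, while leaving out a library cannot undo such a call. Those lost were Slc1a1, Slc38a2, Slc38a3, Slc6a9 and Slc7a10 within 10 kb, and Slc1a7, Slc38a2, Slc38a3, Slc6a9 and Slc7a10 within 25 kb. Within 100 kb they were Slc1a1, Slc1a7, Slc38a2 and Slc7a10, and around the outermost start Slc1a1, Slc38a2, Slc38a3 and Slc7a7. Fewer libraries and shorter lists change these counts by construction, while the cause of the other shifts was not tested. A region missing from a list was not called there, which does not show that binding was absent.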
